A study of Homo sapiens with 6 samples.

Results

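The neurotrophin and GDNF receptor set described here consists of 9 genes, of 32575 listed in the deposited tables: the ligand BDNF, the receptors NGFR, SORT1, NTRK2, NTRK3 and RET, and the co-receptors GFRA1, GFRA2 and GFRA3. They were taken from the tables by gene symbol. Transcript levels come from mRNA sequencing of SH-SY5Y, a human neuroblastoma line of sympathetic origin, in 3 groups of 2 libraries each. Cells of the first group carried a lentiviral hairpin against CSB (gene ERCC6), those of the second one against CSA (gene ERCC8), and those of the third a control hairpin. All groups were selected with puromycin and grown for a further 2 to 3 weeks. The labels call the depleted cells mutants and the controls WT, although the protocol describes hairpins, so the groups are called CSB knockdown, CSA knockdown and control here. CSA, part of a ubiquitin ligase, and CSB, a chromatin remodeller, act in transcription-coupled repair, and loss of either causes Cockayne syndrome. The comparisons ask which transcripts differ in a neuron-like cell that carries a hairpin against either gene. Protein levels are not part of these data, and whether a difference follows from loss of the target was not tested.

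Neurotrophins such as BDNF bind the Trk receptor tyrosine kinases, which promote survival and neurite growth of sympathetic and sensory neurons. Their precursors bind p75 (gene NGFR) together with sortilin (gene SORT1), a pair that can signal cell death. The GDNF family ligands bind a GFRα co-receptor anchored to the membrane by a lipid, and the pair activates the RET tyrosine kinase. Neural crest derivatives, among them sympathetic neuroblasts and neuroblastoma, use both systems.

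The libraries held 19368272 to 26758162 reads assigned to genes, and mitochondrial transcripts took 5.73 to 6.51% of the values. ERCC6 averaged 280 ± 31.3 in CSB knockdown and 604 ± 15.2 in control, and ERCC8 averaged 59.5 ± 3.23 in CSA knockdown and 218 ± 1.27 in control (scaled counts, SD, n = 2 each), so each target was lower in the group named after it. The scaled count is the deposited value, a gene's read count divided by 1 factor per library, and it does not correct for gene length. All 10 noradrenergic neuroblastoma markers had a mean of at least 10, although the level of TH, the enzyme that starts catecholamine synthesis, was low in all libraries (2.86 to 20.3). Of 9 Schwann cell markers, SOX10, FOXD3, CDH19 and FABP7 had no entry in any library. No source used here says if a group's 2 libraries stem from separate cultures, so p-values measure the spread between libraries, which may be technical.

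All 9 genes had a mean of at least 1 in at least 1 group and were tested. A gene is said to have risen or fallen where its adjusted p, from limma with Benjamini-Hochberg adjustment over 28388 genes, was below 0.05. In CSB knockdown against control, 8 of the 9 passed, with 3 up (NGFR, BDNF and GFRA2) and 5 down (NTRK3, SORT1, RET, GFRA1 and GFRA3). The background was 23.6% of all tested genes, with 14.8% (4191 genes) up and 8.86% (2515) down. After TMM scaling, another way to set the library factors, that split was 2752 up and 3078 down. In CSA knockdown against control, 6 of the 9 passed, with 4 up (NTRK2, RET, GFRA2 and GFRA3) and 2 down (NGFR and NTRK3). The background there was 18.8%, with 8.37% up and 10.4% down. All 9 genes had a mean of at least 10 in a group, and genes at that level passed more often. Tested alone, 7580 of 18321 such genes passed in CSB knockdown (4771 up and 2809 down). In CSA knockdown 6219 of them passed (2848 up and 3371 down). In that setting the same 8 and 6 of the 9 genes passed. With 1 library left out, 4 to 7 of the genes passed in CSB knockdown and 2 to 4 in CSA knockdown, over the 6 such fits. NGFR, GFRA3 and RET had opposite directions in the knockdowns, whereas NTRK3 and GFRA2 had the same direction in both. The median size of the log2 change over the 9 genes was 0.84 in CSB knockdown and 0.57 in CSA knockdown, beside 0.33 and 0.30 over all tested genes. With signs kept, the medians were -0.18 and 0.05, beside 0.10 and 0.0048 over all tested genes. Both comparisons use the same control libraries.

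**Figure D1:**
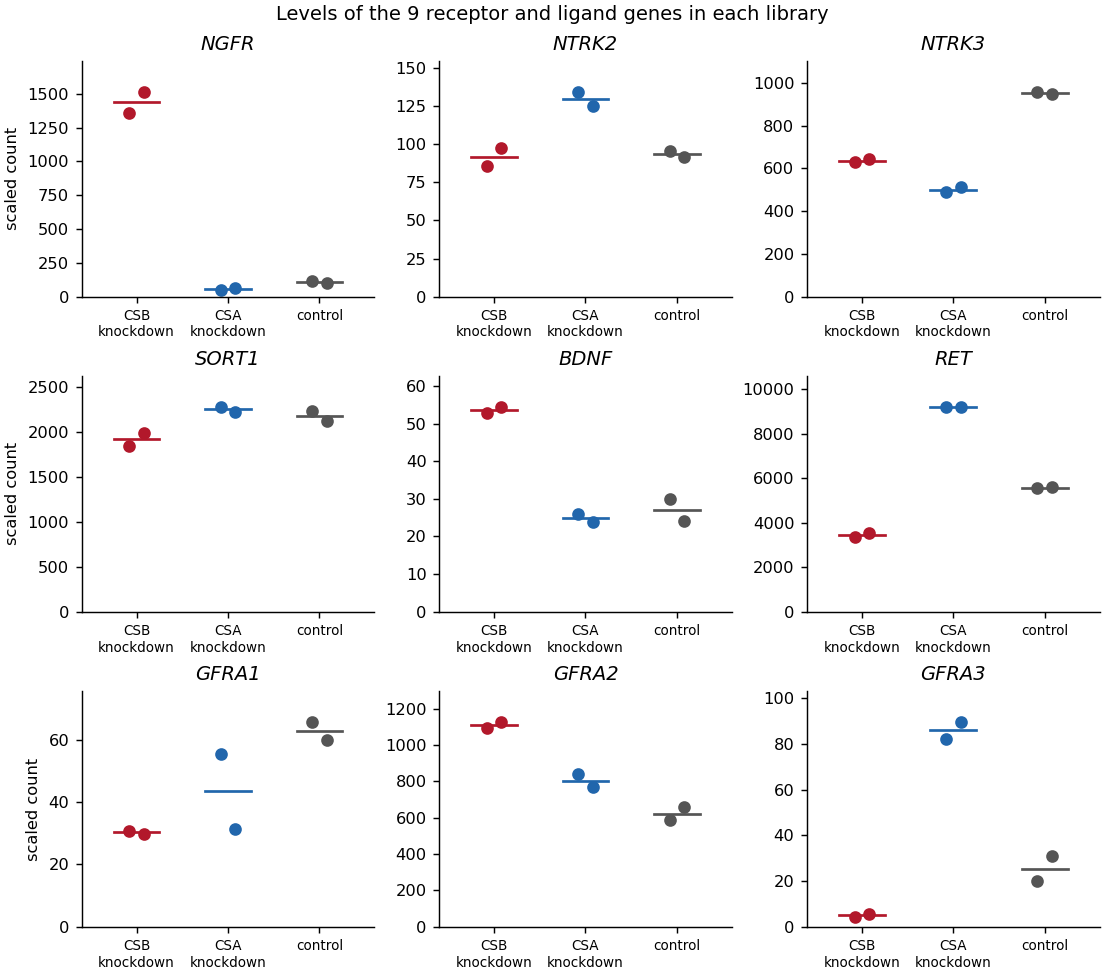
Scaled counts of the 9 genes (vertical axes, each from 0) in each library of CSB knockdown, CSA knockdown and control; points are libraries and bars are the means of 2. NGFR is at 1358 and 1515 in CSB knockdown and at or below 116 in the other libraries, while RET and GFRA3 are highest in CSA knockdown and lowest in CSB knockdown.

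BDNF, the ligand of TrkB, was the 1 secreted factor among the 9 genes (ENSG00000176697, chromosome 11, 27654893 to 27722058, minus strand, hg38). Its scaled counts were 52.8 and 54.5 in CSB knockdown, 26.0 and 23.8 in CSA knockdown, and 29.8 and 24.1 in control. Both CSB knockdown libraries lay above the other 4, and the CSA knockdown and control libraries overlapped. BDNF rose in CSB knockdown against control (log2 fold change 0.97 ± 0.25 SE, adjusted p = 0.0131) and against CSA knockdown (1.08 ± 0.25, adjusted p = 0.00555). Its difference between CSA knockdown and control was -0.10, with a 95% interval of -0.65 to 0.44 (adjusted p = 0.833). The rise against control rested on 114 reads in CSB knockdown and 55 in control. It missed the threshold with either control library or either CSB knockdown library left out (adjusted p up to 0.125) and with DESeq2 (0.0907). Against CSA knockdown it missed it without CSA knockdown replicate 2 or either CSB knockdown library (up to 0.0824) and with DESeq2 (0.0528).

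The antisense gene BDNF-AS overlaps BDNF and held 116% of its summed scaled counts. BDNF-AS stood at 40.7 and 29.7 in CSB knockdown, 43.4 and 51.5 in CSA knockdown, and 41.8 and 38.6 in control. The sources used here do not state a strand setting for the counting, so reads of the pair cannot be told apart with certainty. BDNF-AS differed by -0.20 ± 0.24 on the log2 scale in CSB knockdown against control (adjusted p = 0.625).

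NGFR encodes p75, the receptor that all neurotrophins bind with similar affinity (ENSG00000064300, chromosome 17, 49495293 to 49515017, plus strand). Scaled counts of NGFR were 1358 and 1515 in CSB knockdown, 47.7 and 62.0 in CSA knockdown, and 116 and 102 in control. No 2 groups overlapped: the CSB knockdown libraries were the highest and the CSA knockdown libraries the lowest. The mean in CSB knockdown was 13.1 times that of control (log2 fold change 3.70 ± 0.13, adjusted p = 1.1e-08). In CSA knockdown the mean was 50.2% of control (-0.99 ± 0.13, adjusted p = 2.0e-04). Set directly against CSA knockdown, CSB knockdown was 26.2 times higher (4.70 ± 0.13, adjusted p = 2.2e-10). In this last comparison 8 of the 9 genes passed, against a background of 29.4%, with 18.1% up and 11.3% down. Those shares are 5128 and 3212 genes, or 3956 and 3856 after TMM scaling. Among 18321 genes with a mean of at least 10 in a group, tested alone, 8892 passed (5455 up and 3437 down). Of the 9 genes, 4 to 7 passed with 1 library left out. The rise of NGFR in CSB knockdown passed with any library left out (adjusted p up to 0.0320). Its fall in CSA knockdown missed the threshold without control replicate 1 or either CSB knockdown library (up to 0.0691).

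In bulk RNA, fewer cells that express a gene and less RNA of it per cell cannot be told apart. The summed scaled counts of the fibroblast and mesenchymal markers had the same order of groups as NGFR. They ran from 30198 to 30328 in CSB knockdown, from 15515 to 15674 in CSA knockdown, and from 20080 to 21261 in control. Of those 10 markers, all were detected, 6 rose and 1 fell in CSB knockdown, and 4 fell in CSA knockdown. Their median log2 changes were 0.68 and -0.22. With a library left out, 4 to 5 of them rose and 1 fell in CSB knockdown, and 0 to 1 rose and 2 to 3 fell in CSA knockdown. Beside these marker counts, 14.8% of all tested genes rose and 8.86% fell in CSB knockdown. In CSA knockdown 8.37% rose and 10.4% fell. TWIST1, a mesenchymal transcription factor among those markers, stood at 13410 and 12759 in CSB knockdown, 5736 and 6286 in CSA knockdown, and 6991 and 6099 in control. Most of the rise of the sum in CSB knockdown lay in TWIST1, and its CSA knockdown and control libraries overlapped. Schwann cell markers, another NGFR-positive lineage, summed to 125 to 154 in CSB knockdown, 116 to 118 in CSA knockdown and 124 to 125 in control. The part of other cell states in the NGFR values was not tested.

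SORT1 encodes sortilin, which pairs with p75 for proneurotrophins and also sorts proteins inside the cell (ENSG00000134243, chromosome 1, 109309568 to 109397951, minus strand). Its scaled counts were 1849 and 1995 in CSB knockdown, 2283 and 2228 in CSA knockdown, and 2232 and 2126 in control. The CSB knockdown libraries were the lowest, and the CSA knockdown and control libraries overlapped. SORT1 fell in CSB knockdown to 88.2% of control (-0.18 ± 0.06, adjusted p = 0.0342) and to 85.2% of CSA knockdown (-0.23 ± 0.06, adjusted p = 0.00729). The fall against control did not pass with any 1 of the 6 libraries left out (adjusted p 0.0861 to 0.265). That against CSA knockdown did not pass without either CSA knockdown library or without CSB knockdown replicate 1 (up to 0.112). Between CSA knockdown and control the log2 difference was 0.05, with a 95% interval of -0.07 to 0.17 (adjusted p = 0.621).

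NTRK2 encodes TrkB, the receptor of BDNF and NT-4 (ENSG00000148053, chromosome 9, 84668551 to 85027070, plus strand). It had scaled counts of 85.9 and 97.4 in CSB knockdown, 134 and 125 in CSA knockdown, and 95.5 and 91.6 in control. The CSA knockdown libraries were the highest, and the CSB knockdown and control libraries overlapped. NTRK2 rose in CSA knockdown against control (0.47 ± 0.14, adjusted p = 0.0367) and was lower in CSB knockdown than in CSA knockdown (-0.50 ± 0.14, adjusted p = 0.0175). Neither difference passed with any 1 of the 6 libraries left out (adjusted p 0.0706 to 0.192 and 0.0508 to 0.106). DESeq2 gave neither call (0.171 and 0.0551), and the rise was also lost when the 2 groups were fitted alone. The log2 difference between CSB knockdown and control was -0.03, with a 95% interval of -0.34 to 0.27 (adjusted p = 0.909).

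NTRK3 encodes TrkC, the receptor of NT-3 (ENSG00000140538, chromosome 15, 87859751 to 88256768, minus strand). Its scaled counts were 628 and 645 in CSB knockdown, 489 and 513 in CSA knockdown, and 958 and 949 in control. The groups did not overlap, and all 4 knockdown libraries lay below both controls. NTRK3 fell to 66.7% of control in CSB knockdown (-0.58 ± 0.06, adjusted p = 3.5e-05) and to 52.5% in CSA knockdown (-0.93 ± 0.06, adjusted p = 9.8e-07). It was higher in CSB knockdown than in CSA knockdown (0.34 ± 0.06, adjusted p = 0.00119). These 3 differences passed with any library left out (adjusted p up to 0.0404). Both NTRK2 and NTRK3 make kinase-bearing and truncated receptors, which values per gene do not separate.

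**Figure D2:**
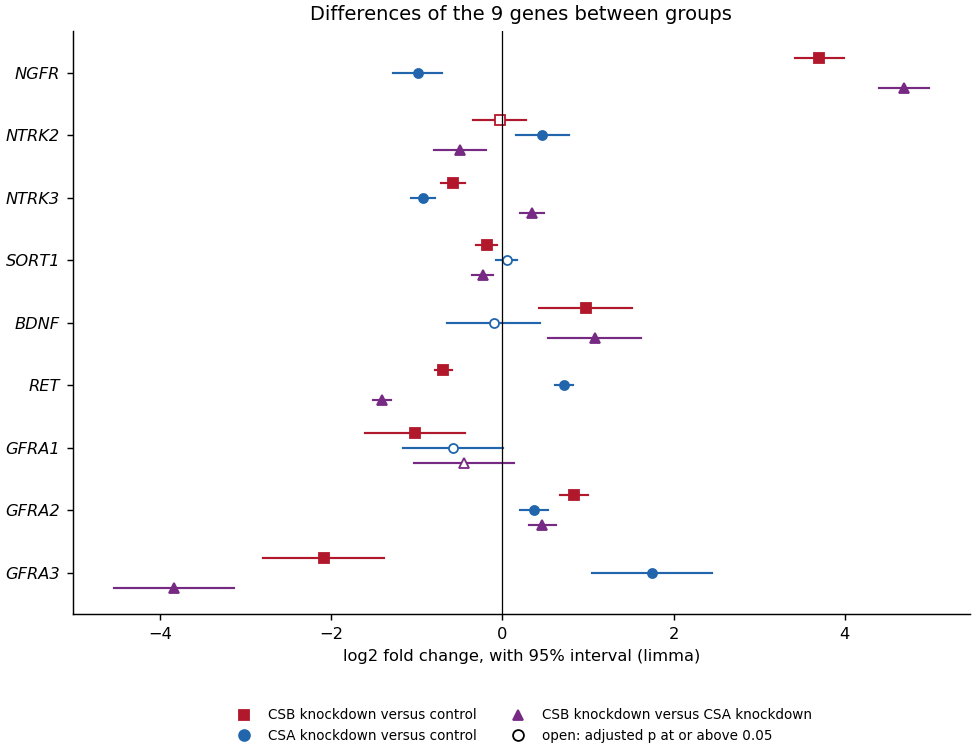
Log2 fold change (horizontal axis) of each of the 9 genes in 3 comparisons (squares, CSB knockdown over control; circles, CSA knockdown over control; triangles, CSB over CSA knockdown), with 95% intervals from limma; filled marks passed adjusted p 0.05. Against control, NGFR is at 3.70 in CSB knockdown and at -0.99 in CSA knockdown, and the intervals of BDNF, GFRA1 and GFRA3 are the widest.

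RET is the receptor tyrosine kinase shared by the GDNF family ligands (ENSG00000165731, chromosome 10, 43077027 to 43130351, plus strand). Its scaled counts were 3368 and 3549 in CSB knockdown, 9189 and 9208 in CSA knockdown, and 5566 and 5591 in control. The groups did not overlap, and the 2 libraries of each group lay close together. RET fell in CSB knockdown to 62.0% of control (-0.69 ± 0.05, adjusted p = 1.1e-06) and was 1.65 times control in CSA knockdown (0.72 ± 0.05, adjusted p = 7.9e-07). CSB knockdown stood at 37.6% of CSA knockdown (-1.41 ± 0.05, adjusted p = 9.3e-10). These 3 differences passed with any library left out (adjusted p up to 0.0308). The summed scaled counts of the noradrenergic marker genes had the same order. They were 104951 to 105427 in CSB knockdown, 139369 to 142989 in CSA knockdown and 117956 to 121324 in control. Such a sum weighs abundant genes most. Of the 10 markers, 2 rose and 3 fell in CSB knockdown, and 4 rose and 2 fell in CSA knockdown. Their median log2 changes were -0.09 and 0.06. The marker HAND2 overlaps HAND2-AS1 on the opposite strand, which held 72.0% of its summed scaled counts. When a library was left out, 0 to 2 rose and 3 fell in CSB knockdown, and 3 rose and 0 to 1 fell in CSA knockdown. Beside these marker counts, 14.8% of all tested genes rose and 8.86% fell in CSB knockdown. In CSA knockdown 8.37% rose and 10.4% fell. The part of the noradrenergic marker differences in the RET values was not tested.

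GFRA1 encodes the co-receptor preferred by GDNF (ENSG00000151892, chromosome 10, 116056925 to 116273467, minus strand). It had scaled counts of 30.8 and 29.7 in CSB knockdown, 55.3 and 31.5 in CSA knockdown, and 65.6 and 59.8 in control. The groups did not overlap, but the 2 CSA knockdown libraries differed more from each other than those of the other groups. GFRA1 fell in CSB knockdown to 48.2% of control (-1.03 ± 0.27, adjusted p = 0.0147), on 64 reads in CSB knockdown and 128 in control. The fall missed the threshold without either control library or either CSB knockdown library (adjusted p up to 0.236). For CSA knockdown against control the log2 difference was -0.57, with a 95% interval of -1.16 to 0.01 (adjusted p = 0.178). It was -0.97 without CSA knockdown replicate 1 (adjusted p = 0.0611) and -0.18 without CSA knockdown replicate 2 (adjusted p = 0.578). CSB knockdown against CSA knockdown gave -0.45 (adjusted p = 0.251), which became -0.85 (adjusted p = 0.0451) without CSA knockdown replicate 2.

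GFRA2 encodes the co-receptor preferred by neurturin (ENSG00000168546, chromosome 8, 21690403 to 21812357, minus strand). Its scaled counts were 1092 and 1128 in CSB knockdown, 841 and 767 in CSA knockdown, and 586 and 658 in control. The groups did not overlap, and all 4 knockdown libraries lay above both controls. GFRA2 was 1.79 times control in CSB knockdown (0.84 ± 0.07, adjusted p = 6.7e-06) and 1.29 times control in CSA knockdown (0.37 ± 0.07, adjusted p = 0.00350). It was also higher in CSB knockdown than in CSA knockdown (0.47 ± 0.07, adjusted p = 3.7e-04). The rise in CSB knockdown passed with any library left out (adjusted p up to 0.0452), whereas the rise in CSA knockdown passed in none of the 6 fits with a library left out (0.0519 to 0.131). The difference between the knockdowns missed the threshold without CSA knockdown replicate 2 or either CSB knockdown library (up to 0.0841).

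GFRA3 encodes the co-receptor preferred by artemin, a ligand with a known role in sympathetic neurons (ENSG00000146013, chromosome 5, 138252379 to 138274671, minus strand). Its scaled counts were 4.40 and 5.78 in CSB knockdown, 82.4 and 89.6 in CSA knockdown, and 19.9 and 30.9 in control. The groups did not overlap, with CSA knockdown highest and CSB knockdown lowest. GFRA3 fell in CSB knockdown to 20.1% of control (-2.09 ± 0.32, adjusted p = 4.7e-04), on 11 reads in CSB knockdown and 52 in control. In CSA knockdown it was 3.39 times control (1.75 ± 0.32, adjusted p = 0.00203). The difference between CSB knockdown and CSA knockdown was -3.84 ± 0.32 (adjusted p = 1.8e-06) and passed with any library left out. The fall missed the threshold without either CSB knockdown library (adjusted p up to 0.0730). The rise in CSA knockdown passed without control replicate 2 but not without any other library (up to 0.0981).

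RET and GFRA3, a kinase and a co-receptor that can bind each other, were the 2 of the 9 genes that rose in CSA knockdown and fell in CSB knockdown, so the bases upstream of their starts are shown. The sequences are RefSeq's (GRCh38.p14) and run from 250 to 51 bases before the RefSeq start, 5′ to 3′ on the gene's strand. Capitals mark the GC box GGGCGG or its complement CCGCCC, a motif that SP1 family factors bind. RET lies at chr10:43076819-43077018, plus strand, and GFRA3 at chr5:138274672-138274871, minus strand.
RET: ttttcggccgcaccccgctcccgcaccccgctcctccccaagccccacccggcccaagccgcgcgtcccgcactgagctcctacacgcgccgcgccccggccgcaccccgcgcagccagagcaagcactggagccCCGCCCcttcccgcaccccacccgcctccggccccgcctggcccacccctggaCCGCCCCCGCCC
GFRA3: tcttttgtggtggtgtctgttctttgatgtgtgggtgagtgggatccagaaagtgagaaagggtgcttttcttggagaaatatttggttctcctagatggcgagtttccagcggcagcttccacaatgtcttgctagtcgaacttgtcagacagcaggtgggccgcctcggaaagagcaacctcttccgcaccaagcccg
The RET stretch was 80% G or C with 25 CpG pairs, and that of GFRA3 51.5% with 7, beside medians of 57.5% and 8 over 35115 RefSeq promoters. RET held 3 GC boxes and GFRA3 none, and 35.0% of all promoters held at least 1 in this window. The E-box CANNTG, read on both strands, occurred once in GFRA3 and not in RET, and 54.6% of all promoters held it. Neither stretch held TATAAA, TGACGTCA or TAATTA, which 7.63%, 0.951% and 3.74% of all promoters held. Bases closer to the start than 51 were not searched, so a TATAAA or other motif there would not be seen. Thus these 2 stretches shared none of the 5 motifs searched. A promoter was at hand for 7 of the 9 genes, not for NGFR and GFRA2.

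Levels of different genes can be compared only per length, here as the scaled count per kilobase of the deposited gene length. RET ranked highest of the 9 genes in every group, at 519 ± 19.2 in CSB knockdown, 1381 ± 1.94 in CSA knockdown and 837 ± 2.62 in control (SD, n = 2 each). Among 16555 protein-coding genes that put RET at the 89.5th, 97.3rd and 94.6th percentile. NGFR had rank 2 in CSB knockdown, at 346 ± 26.8, but rank 6 in CSA knockdown (13.2 ± 2.44) and rank 5 in control (26.3 ± 2.41), with percentiles of 82.6, 28.5 and 33.6. SORT1 and GFRA2 followed RET and NGFR in CSB knockdown, at 210 ± 11.3 and 194 ± 4.41, and held ranks 2 and 3 in CSA knockdown and control. GFRA3 was last in CSB knockdown at 2.50 ± 0.48, of rank 4 in CSA knockdown at 42.2 ± 2.52, and of rank 6 in control at 12.4 ± 3.81. NTRK2, GFRA1 and BDNF stayed between 3.13 and 6.93 in all groups. Neighbours in the order did not overlap between libraries, except GFRA1 and BDNF in CSA knockdown.

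For 8 of the 9 genes the deposited length equals the union of all exons in GENCODE v29, and for RET it is 96.4% of it. NTRK2 and NTRK3 have union lengths of 20363 and 26750 bases, the longest of the 9. Their values per kilobase therefore lie lower than they would over a single transcript, and their rank is uncertain.

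**Figure D3:**
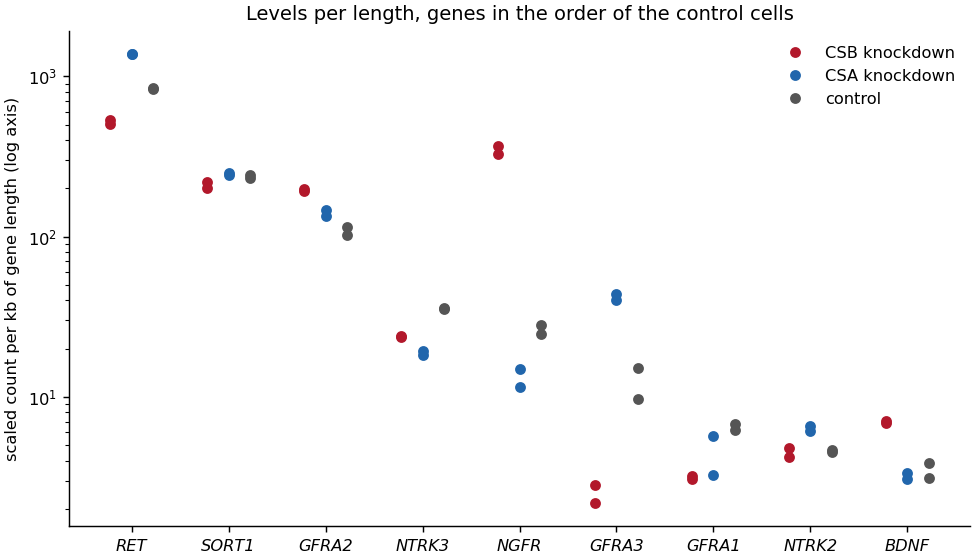
Scaled count per kilobase (vertical log axis) of the 9 genes, ordered by their level in control; each point is 1 library of CSB knockdown, CSA knockdown or control. RET is highest in every group, and NGFR lies at 346 in CSB knockdown against 13.2 in CSA knockdown and 26.3 in control.

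The balance between co-receptors and RET was computed in each library from the values per kilobase, as a description without a test. GFRA1, GFRA2 and GFRA3 together reached 196 and 203 in CSB knockdown, 193 and 181 in CSA knockdown, and 119 and 136 in control. The sum was thus higher in all 4 knockdown libraries than in either control. GFRA2 made up 97.3 and 97.1% of it in CSB knockdown, 76.1 and 74.0% in CSA knockdown, and 86.1 and 84.4% in control. GFRA3 contributed 1.10 and 1.39% in CSB knockdown, 20.9 and 24.2% in CSA knockdown, and 8.20 and 11.1% in control. RET stood at 2.57 and 2.62 times the co-receptor sum in CSB knockdown, 7.14 and 7.62 times in CSA knockdown, and 7.02 and 6.15 times in control. The ratio was therefore lowest in CSB knockdown, where RET fell and GFRA2 rose. GFRA1, GFRA2 and GFRA3 have deposited lengths of 9678, 5716 and 2039 bases, the union of all their exons. Both the shares and the ratio depend on these lengths, so their absolute size is uncertain.

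For each of the 9 genes, the 3 most similar patterns were sought over the 6 libraries among 12016 protein-coding genes with a mean of at least 50. Similarity was the distance between log2(scaled count + 1) profiles centred on their own means, so a smaller value is closer. For RET the nearest were CCDC64, CAMK2B and C1orf226 (0.0830 to 0.115), and for SORT1 they were SREK1, ZC3H6 and DFFA (0.0419 to 0.0588). ERO1A, DTNA and BAZ2B lay nearest to NTRK2 (0.0824 to 0.0970), CALD1, PRKAA2 and GABRQ to NTRK3 (0.122 to 0.154), and SOX5, LMF1 and PRKCD to BDNF (0.118 to 0.155). ZNF497, ASIC3 and C18orf32 came nearest to GFRA2 (0.105 to 0.137), and SLC7A2, SERGEF and CXCR4 to GFRA1 (0.439 to 0.462). PRRX2, CDH8 and CRTAC1 were nearest to NGFR, at 2.02 to 2.07, and had the same order of groups with a smaller rise in CSB knockdown. PRRX2 averaged 557 in CSB knockdown, 63.3 in CSA knockdown and 152 in control. The distance grows with the size of the changes, so distances are not comparable between the 9 genes. GFRA3 was followed by RTL1, RIT2 and RAB27B (0.750 to 0.994), and RTL1, a retrotransposon-derived gene, averaged 167 in CSB knockdown, 3631 in CSA knockdown and 997 in control. C1orf226, DFFA, CRTAC1 and ZNF497 overlap other expressed genes, so their values are uncertain.

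The remaining ligands were mostly low. Of 8 listed, 6 were tested, and 3 rose and none fell in CSB knockdown, while none rose and 1 fell in CSA knockdown. With a library left out, 1 to 2 rose in CSB knockdown and 1 fell in CSA knockdown. The median log2 change of these 6 was 0.84 in CSB knockdown and 0.05 in CSA knockdown. Beside these ligand counts, 14.8% of all tested genes rose and 8.86% fell in CSB knockdown. In CSA knockdown 8.37% rose and 10.4% fell. Of 18321 genes with a mean of at least 10 in a group, tested alone, 4771 rose and 2809 fell in CSB knockdown. In CSA knockdown 2848 of them rose and 3371 fell. GDF15, a stress-induced ligand that signals to RET through the co-receptor GFRAL, had scaled counts of 1155 and 1093 in CSB knockdown, 120 and 145 in CSA knockdown, and 380 and 380 in control. It rose in CSB knockdown (1.56 ± 0.09, adjusted p = 3.5e-07) and fell in CSA knockdown (-1.52 ± 0.09, adjusted p = 4.4e-07), and GFRAL itself had no entry in any library. ARTN, which encodes artemin, stood at 60.6 and 69.3 in CSB knockdown, 41.2 and 39.1 in CSA knockdown, and 39.8 and 22.2 in control. The rise of ARTN in CSB knockdown (1.10 ± 0.27, adjusted p = 0.0112) passed without control replicate 1 but not without any other library (up to 0.247). NRTN, the neurturin gene, showed a log2 difference of 0.42 in CSB knockdown (adjusted p = 0.101) and 0.0081 in CSA knockdown (adjusted p = 0.999). NTF3 and GDNF had at most 1.91 and 1.08 in any library and were not tested. PSPN, the persephin gene, differed by 0.58 in CSB knockdown (adjusted p = 0.0238, and 0.0935 to 0.357 with a library left out), but its opposite-strand neighbour ALKBH7 held 876% of its summed scaled counts. NTF4 had at most 14.3 and overlaps CGB7.

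Of the other receptors of these families, 9 had an entry; 5 rose and none fell in CSB knockdown, and none rose and 5 fell in CSA knockdown, with median log2 changes of 0.45 and -0.25. Between the knockdowns directly, 18.1% of all tested genes (5128) were higher and 11.3% (3212) lower in CSB knockdown. After TMM scaling these were 3956 and 3856 genes. Of 18321 genes with a mean of at least 10 in a group, tested alone, 5455 were higher and 3437 lower. Compared in this way, 7 of the 9 receptors were higher in CSB knockdown than in CSA knockdown. With a library left out, 3 to 5 rose in CSB knockdown and 2 to 3 fell in CSA knockdown. Against control, 14.8% of all tested genes rose and 8.86% fell in CSB knockdown, and 8.37% rose and 10.4% fell in CSA knockdown. Among the 18321 genes, 4771 rose and 2809 fell in CSB knockdown, and 2848 rose and 3371 fell in CSA knockdown. LINGO1, a signalling partner of p75 in the Nogo receptor complex, had 477 and 523 in CSB knockdown, 120 and 146 in CSA knockdown, and 249 and 250 in control. LINGO1 rose in CSB knockdown (1.00 ± 0.11, adjusted p = 3.1e-05) and fell in CSA knockdown (-0.91 ± 0.11, adjusted p = 7.9e-05), the rise missing the threshold without CSB knockdown replicate 2 (adjusted p = 0.0558). The Nogo receptor gene RTN4R did the same (0.79 ± 0.11, adjusted p = 3.1e-04, and -0.40 ± 0.11, adjusted p = 0.0299), with a rise that missed the threshold without either CSB knockdown library (up to 0.0554). The RTN4R fall passed in none of the fits with a library left out (up to 0.193) and in 9 of the 12 other settings. The sortilin relative SORCS1 rose in CSB knockdown (0.35 ± 0.05, adjusted p = 1.8e-04) and fell in CSA knockdown (-0.41 ± 0.05, adjusted p = 6.3e-05), whereas SORL1 passed in neither. SORCS2, which can replace sortilin beside p75, fell in CSA knockdown (-0.99 ± 0.19, adjusted p = 0.00231), except without control replicate 2 or CSA knockdown replicate 2 (up to 0.0709). NCAM1, an adhesion molecule that can bind GDNF with GFRα1, rose in CSB knockdown (0.45 ± 0.05, adjusted p = 3.1e-05). SDC3, a proteoglycan that binds GDNF, fell in CSA knockdown (-0.25 ± 0.06, adjusted p = 0.0129), with adjusted p 0.0506 to 0.213 when a library was left out.

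**Figure D4:**
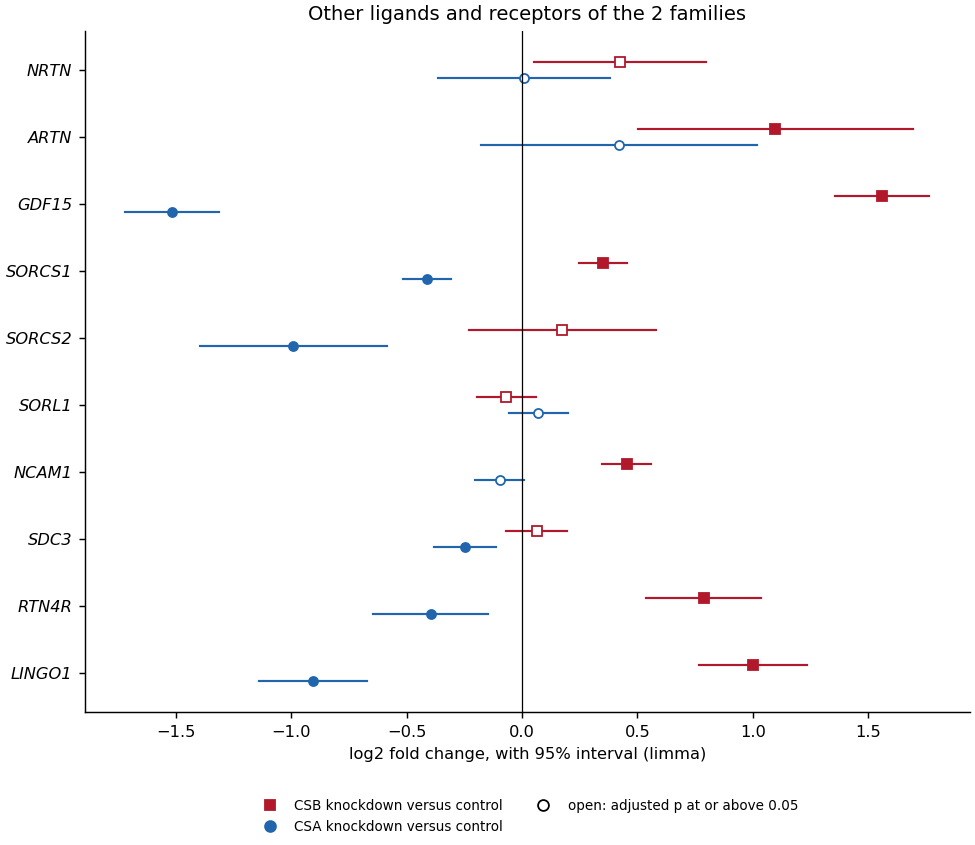
Log2 fold change (horizontal axis) with 95% intervals from limma for other ligands (NRTN to GDF15) and receptors (SORCS1 to LINGO1), in CSB knockdown versus control and CSA knockdown versus control; filled marks passed adjusted p 0.05. Drawn are genes with a mean of at least 50 in a group and no overlapping gene above 50% of their summed scaled counts. GDF15, SORCS1, RTN4R and LINGO1 passed in opposite directions in the knockdowns.

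Downstream of the receptors, the adaptors and effectors of Trk and RET changed in both directions. Of 29 tested, 12 rose and 4 fell in CSB knockdown, and 6 rose and 6 fell in CSA knockdown, with medians of 0.18 and 0.02. With a library left out, 4 to 13 rose and 3 to 4 fell in CSB knockdown, and 3 to 4 rose and 2 to 3 fell in CSA knockdown. Over all tested genes, 14.8% rose and 8.86% fell in CSB knockdown, and 8.37% rose and 10.4% fell in CSA knockdown. Of 18321 genes with a mean of at least 10 in a group, tested alone, 4771 rose and 2809 fell in CSB knockdown. In CSA knockdown 2848 of them rose and 3371 fell. The falls of the adaptor list in CSB knockdown and its counts in CSA knockdown lay near these latter shares. GRB2, the adaptor that links receptors to Ras, fell in CSB knockdown (2932 and 3026, against 4458 and 4518 in control, log2 fold change -0.59 ± 0.05, adjusted p = 3.0e-06). GAB2, a docking protein, rose in CSB knockdown (0.35 ± 0.05, adjusted p = 3.8e-04) and in CSA knockdown (0.77 ± 0.05, adjusted p = 9.1e-07). SHC2, an adaptor of neuronal Trk signalling, rose in both (0.57 ± 0.06, adjusted p = 2.8e-05, and 0.48 ± 0.06, adjusted p = 1.1e-04). PIK3R1, the regulatory subunit of PI3 kinase, rose in CSA knockdown (0.74 ± 0.06, adjusted p = 1.8e-06) and differed by 0.08 ± 0.06 in CSB knockdown (adjusted p = 0.336). The adaptor NCK2 rose in CSB knockdown (0.37 ± 0.05, adjusted p = 2.9e-04) and fell in CSA knockdown (-0.60 ± 0.05, adjusted p = 8.9e-06). The rise of GAB2 in CSB knockdown missed the threshold without control replicate 2 or either CSB knockdown library (up to 0.0692), and that of NCK2 without CSB knockdown replicate 2 (0.0509).

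Partners of p75 inside the cell numbered 17, of which 4 rose and 2 fell in CSB knockdown, and 4 rose and 1 fell in CSA knockdown (medians -0.02 and 0.03). Leaving out a library gave 1 to 4 that rose and 1 to 4 that fell in CSB knockdown, and 1 to 2 that rose and 0 that fell in CSA knockdown. The background over all tested genes was 14.8% up and 8.86% down in CSB knockdown and 8.37% up and 10.4% down in CSA knockdown. The falls of this list lay near or below it. Among 18321 genes with a mean of at least 10 in a group, 4771 rose in CSB knockdown and 2848 in CSA knockdown. The rises of the list in CSB knockdown lay near that share. BEX1, which binds the p75 intracellular domain, fell in CSB knockdown, where NGFR rose, to 1714 and 1632, against 2848 and 2855 in control (-0.77 ± 0.06, adjusted p = 2.6e-06). KALRN, a guanine nucleotide exchange factor, rose in CSB knockdown (0.56 ± 0.06, adjusted p = 1.5e-05). MAPK10, the neuronal JNK kinase, rose in CSA knockdown (0.67 ± 0.08, adjusted p = 6.8e-05). RHOA, which p75 can activate, did not pass in CSB knockdown (-0.09, adjusted p = 0.249) or in CSA knockdown (-0.13, adjusted p = 0.0913).

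Genes for proneurotrophin processing and receptor cleavage numbered 18 tested, with 7 up and 2 down in CSB knockdown and 3 up and 5 down in CSA knockdown (medians 0.13 and -0.06). With a library left out, 1 to 6 rose and 0 to 1 fell in CSB knockdown, and 0 to 2 rose and 1 to 2 fell in CSA knockdown. PLAT, the tissue plasminogen activator, fell in CSA knockdown (-0.45 ± 0.08, adjusted p = 0.00176), with adjusted p up to 0.0983 without either control or either CSA knockdown library. Genes that traffic or restrain the receptors numbered 20, with 7 up and 2 down in CSB knockdown and 5 up and 4 down in CSA knockdown (medians 0.17 and 0.07). Without one of the libraries, 3 to 7 rose and 1 fell in CSB knockdown, and 1 to 5 rose and 1 to 3 fell in CSA knockdown. The shares over all tested genes were 14.8% up and 8.86% down in CSB knockdown, and 8.37% up and 10.4% down in CSA knockdown. Of 18321 genes with a mean of at least 10 in a group, tested alone, 4771 rose and 2809 fell in CSB knockdown. In CSA knockdown 2848 of them rose and 3371 fell. Falls of both lists in CSB knockdown lay below this latter share, and their other counts near or above it. SPRY2, a feedback inhibitor of receptor tyrosine kinases, rose in CSB knockdown (0.47 ± 0.06, adjusted p = 1.2e-04) and in CSA knockdown (1.12 ± 0.06, adjusted p = 1.6e-07). SPRY1 rose in CSB knockdown (1.03 ± 0.10, adjusted p = 1.8e-05), but not without either CSB knockdown library (adjusted p up to 0.0527). NEDD4L, a ubiquitin ligase, fell in CSA knockdown (-0.56 ± 0.07, adjusted p = 7.4e-05).

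Genes that neurotrophins are known to induce showed 2 up and 3 down of 17 in CSB knockdown, and 5 up and 9 down in CSA knockdown (medians -0.15 and -0.25). Leaving out any library cut the falls in CSA knockdown to between 1 and 4, while 4 to 5 still rose; in CSB knockdown 1 to 2 rose and 2 to 4 fell. All tested genes gave 14.8% up and 8.86% down in CSB knockdown, and 8.37% up and 10.4% down in CSA knockdown. Of 18321 genes with a mean of at least 10 in a group, tested alone, 4771 rose and 2809 fell in CSB knockdown. In CSA knockdown 2848 of them rose and 3371 fell. Beside these latter shares, the list's rises in CSB knockdown lay below, its falls there near, and its counts in CSA knockdown above. The growth cone gene GAP43 fell in CSB knockdown, to 462 and 428, and rose in CSA knockdown, to 2859 and 3037, against 1388 and 1449 in control. Its log2 fold changes were -1.67 ± 0.06 (adjusted p = 1.3e-08) and 1.06 ± 0.06 (adjusted p = 3.0e-07). NEFL, a neurofilament subunit, had the same directions (-1.20 ± 0.05, adjusted p = 3.3e-08, and 0.77 ± 0.05, adjusted p = 8.4e-07). SCG2, a secretory granule protein, rose in CSA knockdown (1.01 ± 0.05, adjusted p = 5.3e-08), as did the neuropeptide gene NPY (1.21 ± 0.07, adjusted p = 2.9e-07). The early response gene NR4A1 rose in CSB knockdown (0.69 ± 0.07, adjusted p = 3.3e-05). The list thus held early response genes among its falls in CSA knockdown, such as EGR3 (-1.38 ± 0.37, adjusted p = 0.0201), beside neuronal genes among its rises; the EGR3 call passed in none of the fits with a library left out (up to 0.178).

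Transcription factors of the sympathetic and sensory lineages, 19 tested, showed 9 up and 1 down in CSB knockdown and 2 up and 8 down in CSA knockdown (medians 0.25 and -0.20). These counts moved to 4 to 9 up and 1 to 2 down in CSB knockdown, and to 0 to 1 up and 1 to 7 down in CSA knockdown, when a library was left out. SOX4, a factor of immature neurons, rose in CSB knockdown (0.95 ± 0.06, adjusted p = 5.4e-07). TLX2, a neural crest homeobox gene, also rose in CSB knockdown (0.78 ± 0.06, adjusted p = 1.9e-06). Retinoic acid is commonly used to differentiate SH-SY5Y cells and raises NTRK2 in them. Of 13 genes of the retinoic acid response, 3 rose and 3 fell in CSB knockdown, and 2 rose and 4 fell in CSA knockdown (medians 0.14 and -0.08). Those ranged from 1 to 3 up and 0 to 2 down in CSB knockdown, and from 0 to 2 up and 1 to 4 down in CSA knockdown, with a library left out. For both lists, the background over all tested genes was 14.8% up and 8.86% down in CSB knockdown. In CSA knockdown it was 8.37% up and 10.4% down. Of 18321 genes with a mean of at least 10 in a group, tested alone, 4771 rose and 2809 fell in CSB knockdown. In CSA knockdown 2848 of them rose and 3371 fell. The rises of the retinoic acid list lay near these latter shares in both knockdowns. CRABP2, a retinoic acid carrier, rose in CSB knockdown (1.04 ± 0.07, adjusted p = 1.1e-06), and its relative CRABP1 fell in CSA knockdown (-1.05 ± 0.09, adjusted p = 5.6e-06).

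**Figure D5:**
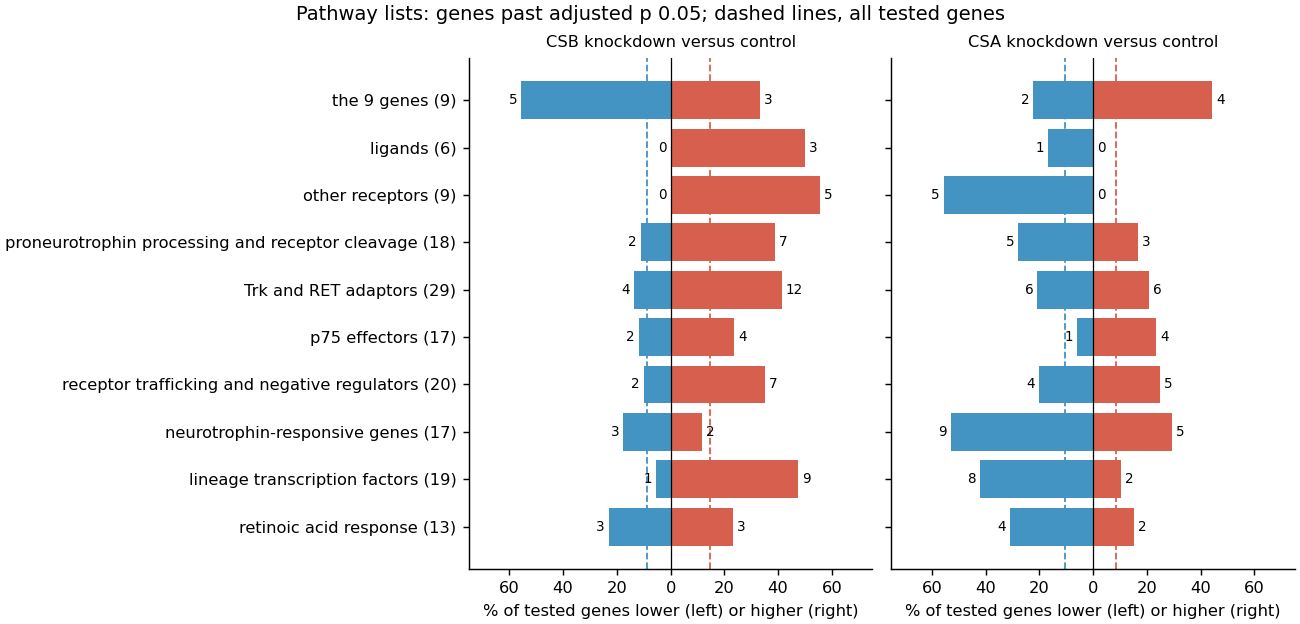
Percent of tested genes in each list that rose (right) or fell (left) in CSB knockdown versus control and CSA knockdown versus control, with counts at the bar ends and the number tested in parentheses; dashed lines mark the share over all tested genes. Genes with a mean of at least 10 in a group passed more often than that share. Other receptors had 5 up and none down in CSB knockdown and none up and 5 down in CSA knockdown.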

How the data were processed

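The 6 libraries were made from total RNA with a TruSeq kit from Illumina, per the labels' protocols. HISAT2 2.0.4, FastQC and the build hg38 are named per the submitters' processing notes. How reads were counted, on which strand and with which annotation is not given in the sources that were used. The deposited signal is called FPKM per the file headers, yet it does not depend on gene length: in each library 100% of the values were whole multiples of the smallest one (tolerance 0.01 of that step). It was therefore treated as read counts divided by 1 factor per library. Genes without an entry were taken as 0, and reads were recovered by division.

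limma 3.58.1 (R 4.3.3, mean-variance trend) was fitted to log2(scaled count + 1) of the 3 groups together, with 3 residual degrees of freedom, for 28388 genes with a mean of at least 1 in a group. The pseudocount makes fold changes of low genes smaller than their ratios. The alternatives were 12 other settings, among them edgeR 4.0.16 and DESeq2 1.42.0 on the recovered reads, and 6 fits without 1 library. Libraries with the same replicate number showed no shared deviation, which cannot tell whether they were handled together. The 9 genes and all lists were chosen with earlier results of these data known. Named were the 9 genes, the targets, other ligands and receptors, and up to 3 rises and 3 falls per list and comparison with control with a mean of at least 10, plus overlapping genes and nearest patterns. TWIST1 and RHOA were named after their values were seen. Results of some genes that the rule names are not reported here, although counts over lists include them.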

Additional observations from a re-analysis of the deposited data

How the results depend on the processing

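Among the 12 settings other than leaving out a library, the total counts of genes called and of the 9 receptor and ligand genes called stayed within 1.5 times the values given, and 319 values of the 9 genes kept their direction and their side of the threshold while 5 lost their call. Counts by direction moved further: the 4191 rises in CSB knockdown versus control were 2212 with DESeq2, 2740 with the genomic span trend removed, 2752 with TMM and 2785 with upper quartile scaling, and the 5128 rises in CSB knockdown versus CSA knockdown were 3132 with DESeq2. With 1 library left out, genes called numbered 1512 to 2882 in CSA knockdown versus control (5334 with all), 1907 to 5451 in CSB knockdown versus control (6706) and 4003 to 6268 in CSB knockdown versus CSA knockdown (8340). Of the 9 genes, 2 to 4, 4 to 7 and 4 to 7 then passed in these comparisons. Of their values, 81 then kept a call, 51 lost it, 27 stayed without one, 1 gained one, and 2 changed sign, both of differences that had not passed. BDNF in CSA knockdown versus control ranged from -0.25 to 0.045, above 0 without control replicate 1. NTRK2 in CSB knockdown versus control ranged from -0.12 to 0.057, above 0 without CSB knockdown replicate 1. ERCC6 in CSA knockdown versus control ranged from -0.00031, without control replicate 2, to 0.051. Leaving out a library lowers the residual degrees of freedom and the lone library is assumed to vary like the other groups.

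Replicate numbers gave correlations of deviations of -0.04, -0.02 and -0.02 between groups over 13881 genes, so no deviation shared by number was seen. This cannot tell whether libraries of the same number were handled together. With the replicate block, 5259, 6575 and 8258 genes passed, and 6, 8 and 8 of the 9 genes. GFRA3, BDNF and GFRA1 rest on few reads, and differences of their size are the least precise here.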
